A study of Mus musculus with 6 samples.

Results

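Cardiomyocytes of the ventricle are joined end to end at the intercalated disc, and 9 genes that encode its junction proteins are described here: Gja1, Cdh2, Dsp, Dsg2, Dsc2, Pkp2, Jup, Ctnna3 and Tjp1. They were taken by gene symbol, and all 9 were found among the 18158 features of the deposited table. RNA was sequenced from ventricles of 6 CD1 mice, an outbred stock, at 3 months of age. The 3 treated mice had been given the aminoglycosides paromomycin and neomycin together (Paro/Neo), at 150 mg/kg by intraperitoneal injection 2 times a day over 14 days, and the 3 control mice had received daily PBS as vehicle. No genetic change is stated for either group, and each library is 1 heart. Per the study's design text, the experiment addresses gene expression where Paro/Neo lowers the activity of the transcription factors Meis1 and Hoxb13, which was not measured in these libraries.

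The disc holds gap junctions, through which the electrical impulse passes from cell to cell, and adherens junctions and desmosomes, which carry mechanical load to the actin and desmin filaments. In the heart the proteins of the last 2 mix in a shared structure, the area composita. Inherited loss of desmosomal proteins is a known cause of arrhythmogenic cardiomyopathy in humans, and the lateral spread or loss of connexin 43, the Gja1 protein, is a known feature of diseased myocardium.

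None of the 9 genes passed the test between Paro/Neo and vehicle hearts at an adjusted p under 0.05. The test was limma, run on log2(TPM + 1) with Benjamini-Hochberg adjustment over all 12409 tested genes, of which 17 passed, 0.137% (0.121% higher and 0.0161% lower in Paro/Neo hearts). Fitted values put 4 of the 9 above and 5 below vehicle. With 1 library left out, this ran from 1 above and 8 below (without vehicle replicate 2) to 5 above and 4 below. The median log2 change of the 9 genes was -0.04 (0.015 without Paro/Neo replicate 1, a library that stood apart), and that of all tested genes -0.02. Gja1 was lower and Dsp higher in every Paro/Neo heart than in any vehicle heart. At an unadjusted p under 0.05 limma counted these 2 of the 9, where 7.61% of all tested genes did so (3.24% higher and 4.37% lower). The groups did not overlap for 14.3% of all tested genes (6.04% higher and 8.22% lower), and 2 of 9 genes are too few to set the list apart from these shares.

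Values are TPM, transcripts scaled to a fixed total in every library, a measure per unit of transcript length, so levels of different genes can be set side by side. All 9 genes had at least 1 TPM in every library and passed the filter on low values, 1 TPM in at least 3 of 6 libraries. Read numbers inferred from the smallest TPM steps were 12421206 to 15575723, as lower estimates, in Paro/Neo hearts and 9556387 to 15969980 in vehicle hearts. The members drew between 355 reads, for Ctnna3, and 22818 reads, for Dsp, in a library, so counting error alone was about 5.31% at the lowest and 0.662% at the highest. For 1 gene and 3 mice a side, the smallest p that an exact two-sided permutation test can give is 0.1, and none was run. In bulk tissue, fewer cells of a type and less RNA per cell cannot be told apart.

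Paro/Neo replicate 1 stood apart from the other 5 libraries. Its mean correlation with the others across genes was 0.975, against 0.982 and 0.985 in the other Paro/Neo hearts and 0.981 to 0.983 in vehicle hearts. Its deviations from the gene means followed the GC content of transcripts with a Spearman coefficient of -0.349 across 11837 genes, against 0.0968 and 0.172 in the other Paro/Neo hearts and -0.117 to 0.300 in vehicle hearts. Markers of the labelled tissue were abundant, with Myl2, the ventricular myosin light chain, at 51694 to 69835 TPM in Paro/Neo hearts and 55269 to 58925 TPM in vehicle hearts. Where leaving out Paro/Neo replicate 1 moves a log2 change stated below by over 1.5 times, the value without it is given.

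The members formed a wide ladder of levels. Gja1 was the highest by TPM in all 6 libraries and its range did not meet that of Dsp, the next. The order of these 2 rests on the transcript lengths used. Inferred reads were 22818 for Dsp and 12179 for Gja1 in Paro/Neo replicate 1, and 11132 and 11698 in vehicle replicate 3. Ranges of Dsp and Pkp2 overlapped, with Dsp above Pkp2 in 5 of 6 libraries, and Cdh2 followed with no overlap on either side. From Dsc2 downwards through Tjp1, Dsg2, Jup and Ctnna3, each gene overlapped with its neighbour in the order. Summed over the 9 genes, the level was 1238, 1411 and 1450 TPM in Paro/Neo replicates 1 to 3 and 1433, 1426 and 1520 TPM in vehicle replicates 1 to 3.

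**Figure D1:**
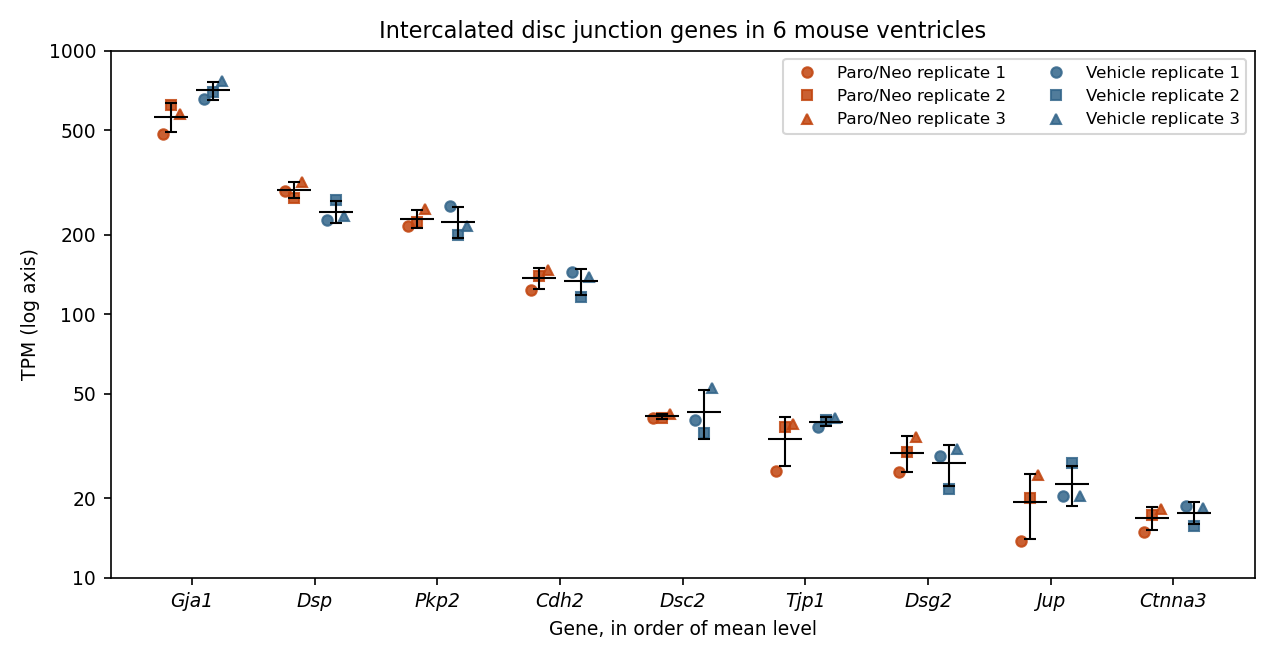
TPM on a log axis of the 9 junction genes, ordered by mean level, in the 3 Paro/Neo hearts (left of each pair) and 3 vehicle hearts (right of each pair), with 1 point per heart and bars for the mean and SD. Gja1 lies lower in all 3 Paro/Neo hearts, at 485 to 625 TPM against 656 to 766 TPM in vehicle, and Dsp lies higher, at 276 to 317 TPM against 228 to 272 TPM.

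Gja1 (ENSMUSG00000050953.10) encodes connexin 43, the main gap junction protein of ventricular muscle, which fibroblasts also make. It lies on chromosome 10 at 56377330 to 56402513 on the plus strand (GRCm38, GENCODE M21, whole gene). The 250 bases before its start site are shown because Gja1 was 1 of the 2 members whose groups did not overlap, and for comparison the same window of Dsp, the other one. Both are RefSeq windows on GRCm38.p6, on the plus strand, chr10:56377050-56377299 for Gja1 and chr13:38151044-38151293 for Dsp, with matches to the motifs named below in capitals.
Gja1: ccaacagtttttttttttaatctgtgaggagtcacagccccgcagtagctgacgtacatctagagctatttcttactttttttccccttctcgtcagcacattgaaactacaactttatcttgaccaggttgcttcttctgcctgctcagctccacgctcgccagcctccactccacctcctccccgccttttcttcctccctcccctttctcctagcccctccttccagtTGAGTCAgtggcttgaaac
Dsp: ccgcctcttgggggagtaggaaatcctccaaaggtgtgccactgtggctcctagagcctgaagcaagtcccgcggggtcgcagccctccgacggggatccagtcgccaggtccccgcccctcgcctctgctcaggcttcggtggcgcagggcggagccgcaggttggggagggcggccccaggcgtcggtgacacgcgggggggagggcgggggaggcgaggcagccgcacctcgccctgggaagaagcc

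These windows were searched on both strands for TGACAG, the core bound by MEIS factors, and for TGAGTCA, the AP-1 motif, which do not overlap each other. The AP-1 motif occurred 1 time, in the Gja1 window, with its first base 19 bases before the RefSeq start site at the window's end. The GENCODE gene model given above starts further downstream, at 56377330. Neither motif was found in the Dsp window. Among the 7 windows matched to 5 of the 9 members, the MEIS core occurred in 2, of Ctnna3 and Jup, and the AP-1 motif in 1. Over all 32851 windows of this length, 15.9% held the MEIS core and 4.46% the AP-1 motif. A match describes letters only.

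Gja1 measured 485, 625 and 576 TPM in Paro/Neo replicates 1 to 3, against 656, 697 and 766 TPM in vehicle replicates 1 to 3. All 3 Paro/Neo hearts thus lay below all 3 vehicle hearts, by a margin of 31.2 TPM between the nearest hearts, and Paro/Neo replicate 1 lay lowest. The means were 562 TPM ± 71.1 in Paro/Neo and 707 TPM ± 55.6 in vehicle hearts (SD, n = 3 each), a ratio of 0.795. The log2 change was -0.33 ± 0.12 (SE), with a 95% interval of -0.61 to -0.06, an unadjusted p of 0.0238 and an adjusted p of 0.550 by limma, so the difference did not pass. Without Paro/Neo replicate 1 the log2 change was -0.23, with an adjusted p of 0.650. Among all features Gja1 was the 241st by mean level in Paro/Neo hearts and the 185th in vehicle hearts.

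Gja1 provided nearly all of the connexin signal. Its share of the TPM summed over 15 listed connexin genes was 90.9%, 93.1% and 92.3% in Paro/Neo replicates 1 to 3. In vehicle replicates 1 to 3 it was 93.8%, 93.8% and 94.1%, so it was lower in each Paro/Neo heart. The other tested connexins summed to 45.2 to 47.5 TPM in Paro/Neo and 42.2 to 47.05 TPM in vehicle hearts. The lower share thus largely restates the lower Gja1 TPM. The other connexins that reached the filter were Gja3, Gjc1, Gja4 and Gja5. Gjc1, connexin 45, which is best known from the conduction system, averaged 15.3 TPM ± 0.142 in Paro/Neo and 14.9 TPM ± 1.33 in vehicle hearts. Gja5, connexin 40 of the atria, conduction fibres and arterial endothelium, averaged 4.55 TPM ± 0.512 in Paro/Neo and 4.44 TPM ± 0.735 in vehicle hearts. Gja3 averaged 19.7 TPM ± 1.72 in Paro/Neo and 18.1 TPM ± 3.46 in vehicle hearts. The Gja4 means, for the endothelial connexin 37, were 7.18 TPM ± 1.74 and 7.38 TPM ± 0.508 (Paro/Neo, then vehicle). All 4 overlapped between the groups, and their adjusted p by limma lay between 0.842 for Gja3 and 0.964 for Gja5. Without Paro/Neo replicate 1 the log2 change of Gja3 was 0.06, against 0.13 over all hearts, and that of Gja4 0.085, against -0.05.

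Dsp (ENSMUSG00000054889.10, chromosome 13, 38151294 to 38198577, plus strand) encodes desmoplakin, the plakin that ties the desmosomal plaque to desmin filaments. It measured 294, 276 and 317 TPM in Paro/Neo replicates 1 to 3, against 228, 272 and 236 TPM in vehicle replicates 1 to 3. The groups did not overlap, but Paro/Neo replicate 2 and vehicle replicate 2 differed by only 4.27 TPM. Means were 296 TPM ± 20.7 in Paro/Neo and 245 TPM ± 23.5 in vehicle hearts (SD, n = 3 each), a ratio of 1.21. The log2 change of 0.27 ± 0.11 (SE) had a 95% interval of 0.03 to 0.52, an unadjusted p of 0.0336 and an adjusted p of 0.590 by limma, and did not pass. Without Paro/Neo replicate 1 it was 0.28. An exon of the gene model overlaps Gm10129 on the opposite strand, and as the strand setting of the counting is not given in the sources used here, reads of the pair may not have been told apart.

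The ratio of Gja1 to Dsp in the same library does not depend on scaling between libraries, but its separation of the groups is no further observation. Gja1 was lower and Dsp higher in every Paro/Neo heart than in any vehicle heart, so the ratio had to be lower too. The ratio of Gja1 to Dsp was 1.65, 2.26 and 1.81 in Paro/Neo replicates 1 to 3, against 2.88, 2.56 and 3.25 in vehicle replicates 1 to 3. This pair was chosen after its values were seen and is a description. Each of the 9 genes was also set against the mean log2 level of the other 8 in the same library. Gja1 then stood 0.32 lower on the log2 scale in Paro/Neo hearts and Dsg2 0.21 higher, both without overlap between the groups. Dsp, 0.36 higher on average, overlapped. For Dsg2 the nearest hearts were almost level, at -1.537 in Paro/Neo replicate 1 and -1.550 in vehicle replicate 3. Vehicle replicate 2 was lowest, at -1.967. The share of all tested genes without overlap on this measure was not computed, so the list cannot be set against it.

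**Figure D2:**
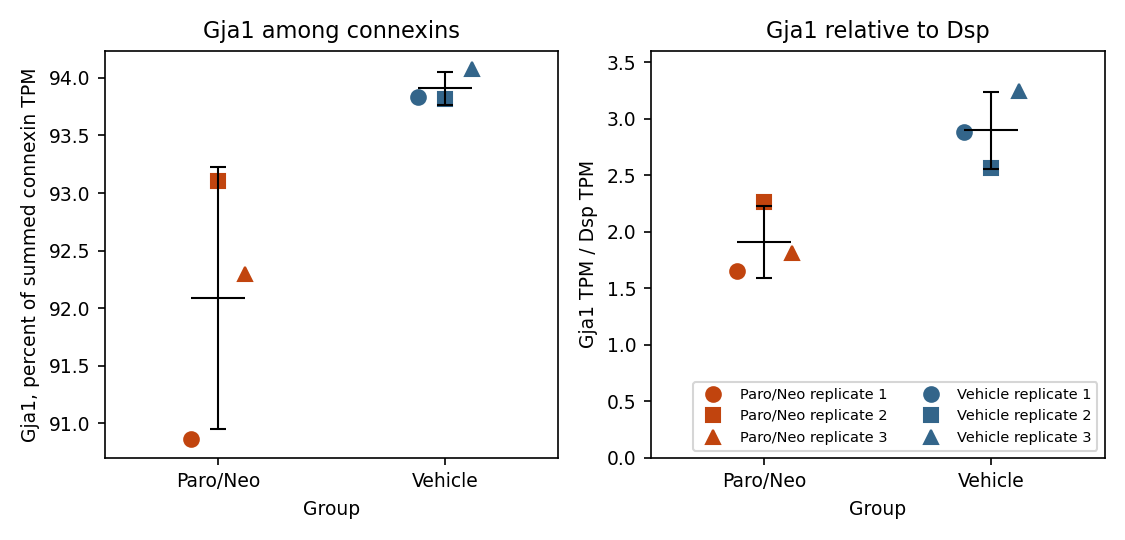
Left, Gja1 as a percent of summed connexin TPM (axis does not start at 0); right, Gja1 TPM divided by Dsp TPM in the same library. Points are hearts, and bars are the mean and SD. In both panels the 3 Paro/Neo hearts lie below the 3 vehicle hearts. Ratios to Dsp are 1.65 to 2.26 in Paro/Neo and 2.56 to 3.25 in vehicle hearts. The right panel had to separate, as Gja1 was lower and Dsp higher in every Paro/Neo heart. The left panel largely restates the TPM of Gja1.

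The other desmosomal members overlapped between the groups. Pkp2, on chromosome 16 at 16213318 to 16272712, encodes plakophilin 2, an armadillo protein of the plaque. It measured 215, 225 and 251 TPM in Paro/Neo replicates 1 to 3 and 258, 200.5 and 216 TPM in vehicle replicates 1 to 3. Its means of 230.5 TPM ± 18.6 and 225 TPM ± 29.9 (Paro/Neo, then vehicle) gave a log2 change of 0.04 with a 95% interval of -0.24 to 0.32, and of 0.09 without Paro/Neo replicate 1. Of the 4 plakophilin genes, Pkp2 held 76.0% ± 1.02 of the TPM in Paro/Neo and 77.4% ± 2.03 in vehicle hearts, and nearly all the rest was Pkp4.

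Dsg2 and Dsc2 encode desmoglein 2 and desmocollin 2, the desmosomal cadherins whose outer domains bridge the gap between cells, and they lie near each other on chromosome 18 at 20558074 to 20604521 and 20030633 to 20059554. Dsg2 measured 25.1, 30.1 and 34.3 TPM in Paro/Neo replicates 1 to 3 and 29.1, 21.7 and 30.8 TPM in vehicle replicates 1 to 3, a log2 change of 0.13 (95% interval -0.25 to 0.51, adjusted p 0.846 by limma) that was 0.25 without Paro/Neo replicate 1. Dsc2 measured 40.4, 40.5 and 41.9 TPM in Paro/Neo replicates 1 to 3 and 39.9, 35.5 and 52.7 TPM in vehicle replicates 1 to 3, a log2 change of -0.04 (95% interval -0.38 to 0.30, adjusted p 0.954). The Paro/Neo hearts lay within the vehicle range for Dsc2, and its SD was 0.847 TPM in Paro/Neo and 8.96 TPM in vehicle hearts. Dsg2 made up 99.5% of the TPM of the listed desmogleins in both groups, and Dsc2 99.9% of that of the desmocollins. An exon of Dsg2 overlaps Gm16090 on the opposite strand.

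Jup, on chromosome 11 at 100368958 to 100397763, encodes plakoglobin, the catenin shared by desmosomes and adherens junctions, which endothelium also makes. It measured 13.7, 20.2 and 24.5 TPM in Paro/Neo replicates 1 to 3 and 20.4, 27.3 and 20.5 TPM in vehicle replicates 1 to 3. Paro/Neo replicate 1 was lowest, and the other Paro/Neo hearts lay near or within the vehicle range. The log2 change was -0.24 (95% interval -0.72 to 0.25, adjusted p 0.796 by limma) and was -0.02 without Paro/Neo replicate 1. Jup varied most among the members, 1.99-fold between its lowest and highest library. Against its close relative Ctnnb1, beta-catenin, it made up 6.25% ± 1.16 of the summed TPM of the pair in Paro/Neo and 6.56% ± 0.858 in vehicle hearts.

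Cdh2, on chromosome 18 at 16588877 to 16809246, encodes N-cadherin, the adhesion receptor of the cardiac adherens junction. It measured 124, 139 and 148 TPM in Paro/Neo replicates 1 to 3 and 145, 117 and 139 TPM in vehicle replicates 1 to 3, with overlapping groups. The log2 change was 0.04 (95% interval -0.24 to 0.31, adjusted p 0.950 by limma), and 0.11 without Paro/Neo replicate 1. Among 7 listed cadherins its share of TPM was 56.3%, 46.6% and 48.7% in Paro/Neo replicates 1 to 3 and 45.6%, 40.2% and 43.2% in vehicle replicates 1 to 3, without overlap. Beside that share stand the other main cadherins: Cdh5, of endothelium, averaged 57.5 TPM ± 19.8 in Paro/Neo and 79.9 TPM ± 11.9 in vehicle hearts, and Cdh13, T-cadherin, 70.3 TPM ± 16.5 in Paro/Neo and 85.7 TPM ± 14.9 in vehicle hearts. Cdh5 was lowest in Paro/Neo replicate 1, at 35.5 TPM against 63.0 and 73.9 TPM in the other Paro/Neo hearts, and its log2 change was -0.52 over all hearts and -0.21 without that heart.

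Ctnna3, on chromosome 10 at 63430098 to 65003667, encodes alphaT-catenin, which links cadherins to actin and binds plakophilin 2 in the area composita. It was the lowest member on average, at 15.0, 17.4 and 18.2 TPM in Paro/Neo replicates 1 to 3 and 18.8, 15.7 and 18.4 TPM in vehicle replicates 1 to 3. The groups overlapped, with Paro/Neo replicate 1 and vehicle replicate 2 lowest. The log2 change was -0.06 (95% interval -0.34 to 0.22, adjusted p 0.908 by limma), and 0.015 without Paro/Neo replicate 1. Ctnna1, the widely expressed alphaE-catenin, was far higher, at 222 to 427 TPM in Paro/Neo and 367 to 462 TPM in vehicle hearts, and Ctnna3 made up 4.96% ± 1.23 of alpha-catenin TPM in Paro/Neo and 4.23% ± 0.466 in vehicle hearts.

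Tjp1, on chromosome 7 at 65296165 to 65527781, encodes ZO-1, a scaffold that binds the tail of connexin 43 at the rim of gap junctions and also serves endothelial tight junctions. It measured 25.4, 37.4 and 38.3 TPM in Paro/Neo replicates 1 to 3 and 37.4, 39.7 and 40.4 TPM in vehicle replicates 1 to 3. Paro/Neo replicate 1 lay far below the other 5 libraries, and vehicle replicate 1 and Paro/Neo replicate 2 were level. The log2 change was -0.23 (95% interval -0.60 to 0.13, adjusted p 0.757 by limma) over all hearts and -0.05 without that heart. Tjp1 made up 80.7% ± 1.90 of zonula occludens TPM in Paro/Neo and 78.3% ± 1.66 in vehicle hearts.

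**Figure D3:**
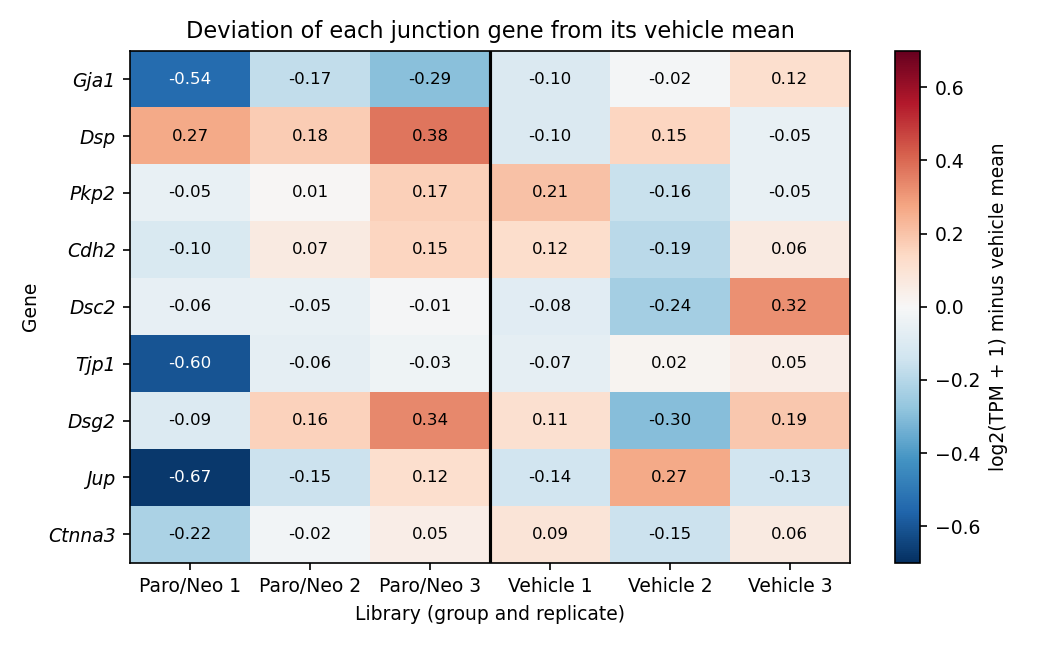
Deviation of each junction gene (rows) in each library (columns) from its vehicle mean, on the log2(TPM + 1) scale, with the value printed in each cell. In Paro/Neo replicate 1, Jup, Tjp1 and Gja1 lie at -0.67, -0.60 and -0.54, while Dsp lies at 0.27; Gja1 is below 0 and Dsp above 0 in all 3 Paro/Neo hearts.

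The median deviation of the 9 genes from their vehicle means was -0.10, -0.02 and 0.12 in Paro/Neo replicates 1 to 3 and -0.07, -0.15 and 0.06 in vehicle replicates 1 to 3. Paro/Neo replicate 1 had the lowest value of 4 members, and vehicle replicate 2 also that of 4. The first 4 were Gja1, Jup, Ctnna3 and Tjp1, and the other 4 were Cdh2, Dsg2, Dsc2 and Pkp2.

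**Figure D4:**
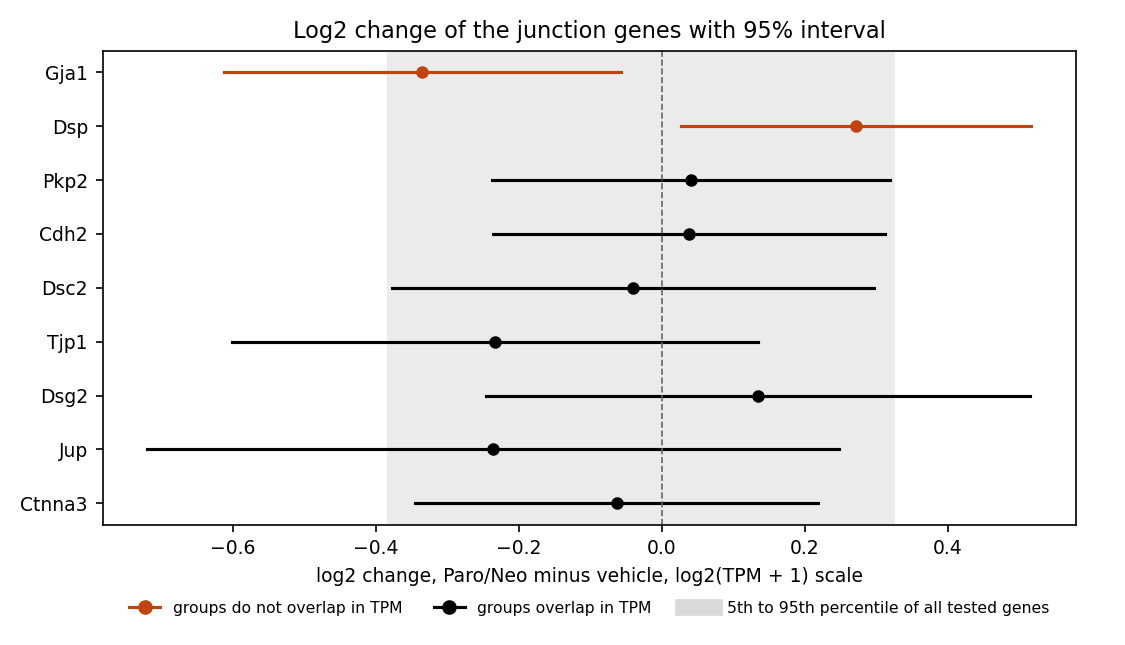
Log2 change of each junction gene, Paro/Neo minus vehicle, with its 95% interval from limma; colour marks whether the 3 hearts of each group overlap in TPM, and the grey band spans the 5th to 95th percentile of all tested genes. All 9 estimates, from -0.33 for Gja1 to 0.27 for Dsp, lie inside the band of -0.38 to 0.32.

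Levels of cell type markers moved beside these values, and their part in the results was not tested. Median deviations of 8 endothelial markers were -0.52, -0.16 and -0.07 in Paro/Neo replicates 1 to 3 and -0.03, 0.16 and -0.11 in vehicle replicates 1 to 3, and the summed level ranged over 463 to 608 TPM in Paro/Neo and 595 to 683 TPM in vehicle hearts. Their median log2 change was -0.27 over all hearts and -0.15 without Paro/Neo replicate 1. All 8 fibroblast markers were lower in Paro/Neo hearts by the fitted values, with 0 past the threshold and 3 at an unadjusted p under 0.05 (limma), where 4.37% of all tested genes were lower at that p, and they summed to 2708 to 3433 TPM in Paro/Neo and 3518 to 3640 TPM in vehicle hearts. Their median log2 change was -0.34 over all hearts and -0.17 without Paro/Neo replicate 1. The 10 cardiomyocyte markers had a median log2 change of -0.01 (0.05 without Paro/Neo replicate 1), 5 higher and 5 lower, and a median deviation of -0.22 in Paro/Neo replicate 1. Smooth muscle and pericyte markers summed to 526 to 771 TPM in Paro/Neo and 557 to 664 TPM in vehicle hearts. Rgs5 made up most of the highest sum, at 610 TPM in Paro/Neo replicate 1. By the fitted values 2 of these 8 markers were higher and 6 lower. Their median deviations were -0.55, -0.19 and 0.09 in Paro/Neo replicates 1 to 3. In vehicle replicates 1 to 3 they were 0.19, -0.26 and 0.05. Macrophage markers summed to 670 to 711 TPM in Paro/Neo and 568 to 696 TPM in vehicle hearts. Only 2 markers each of epicardial cells and of Schwann and other glial cells reached the filter, summing to at most 8.95 TPM in any library.

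Other genes of the same structures were taken from 7 lists, chosen, like the members, with earlier results of these data known. Of the 77 genes tested over these lists, 0 passed the threshold (limma). At an unadjusted p under 0.05 there were 7, 4 higher and 3 lower, which is 9.09% of the 77, near the 7.61% of all tested genes. Among 5 tested genes of the remaining desmosome and its desmin link, 4 lay above and 1 below vehicle by the fitted values (median log2 change 0.16). Perp, a tetraspan membrane protein of desmosomes, averaged 346 TPM ± 11.5 in Paro/Neo and 290 TPM ± 35.9 in vehicle hearts, without overlap (log2 change 0.26, adjusted p 0.634). Pkp4 averaged 72.6 TPM ± 4.75 in Paro/Neo and 65.2 TPM ± 7.02 in vehicle hearts. Ppl, periplakin, was low at 3.91 TPM ± 1.04 and 3.04 TPM ± 0.308 (Paro/Neo, then vehicle), a log2 change of 0.26 that was 0.45 without Paro/Neo replicate 1. Des itself, the muscle intermediate filament, averaged 815 TPM ± 92.0 in Paro/Neo and 752 TPM ± 49.3 in vehicle hearts (adjusted p 0.817).

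Of 11 tested genes of the remaining adherens junction, 2 lay above and 9 below vehicle by the fitted values (median log2 change -0.17, and -0.079 without Paro/Neo replicate 1). The median deviation of these genes was -0.38 in Paro/Neo replicate 1 and -0.07 and -0.10 in the other Paro/Neo hearts. The smallest unadjusted p belonged to Cdh5, Vcl and Ctnnb1. Vcl, vinculin, which reinforces the actin link under load, measured 27.3, 56.3 and 54.2 TPM in Paro/Neo replicates 1 to 3, against 58.4, 58.2 and 63.4 TPM in vehicle replicates 1 to 3, so replicate 1 stood far below the rest. Its log2 change was -0.45 over all hearts (adjusted p 0.715 by limma) and -0.12 without Paro/Neo replicate 1. Ctnnb1 averaged 288 TPM ± 25.5 in Paro/Neo and 322 TPM ± 10.9 in vehicle hearts, also without overlap (log2 change -0.16, adjusted p 0.730), and its log2 change was -0.09 without Paro/Neo replicate 1.

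Of 14 tested tight junction genes, 2 lay above and 12 below vehicle (median log2 change -0.20). Magi1, a scaffold of cell contacts, averaged 3.34 TPM ± 0.299 in Paro/Neo and 4.66 TPM ± 0.505 in vehicle hearts (log2 change -0.38, adjusted p 0.525). Cldn5, the claudin of endothelium that cardiomyocytes also make, averaged 15.4 TPM ± 0.415 in Paro/Neo and 20.9 TPM ± 4.35 in vehicle hearts (log2 change -0.40, adjusted p 0.577). Cxadr, the coxsackievirus and adenovirus receptor, a disc protein needed for conduction through the atrioventricular node in mice, averaged 46.8 TPM ± 2.60 in Paro/Neo and 56.8 TPM ± 6.46 in vehicle hearts (log2 change -0.27, adjusted p 0.647). The groups did not overlap for 5 lower genes, Magi1, Cldn5 and Cxadr among them, and for 1 higher gene. Over all tested genes, 8.22% were lower and 6.04% higher without overlap. None of the 14 genes passed.

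Among 20 genes of the disc cytoskeleton and costamere, 9 lay above and 11 below vehicle by the fitted values (median -0.02, and 0.01 without Paro/Neo replicate 1). Nrap, a scaffold of thin filament ends at the disc, averaged 270 TPM ± 9.92 in Paro/Neo and 223 TPM ± 19.5 in vehicle hearts, without overlap (log2 change 0.28, adjusted p 0.543). Ank2, ankyrin B, measured 31.6, 51.8 and 49.2 TPM in Paro/Neo replicates 1 to 3 and 49.8, 49.0 and 60.1 TPM in vehicle replicates 1 to 3. Its groups overlapped, and its log2 change was -0.28 over all hearts and -0.06 without Paro/Neo replicate 1. Lmo7 also overlapped, at 175 TPM ± 24.1 in Paro/Neo and 160 TPM ± 18.4 in vehicle hearts, with a log2 change of 0.13 over all hearts and 0.25 without that heart. Xirp2, an actin-binding protein of the disc, had its highest level, 560 TPM, in Paro/Neo replicate 1, against 331 to 412 TPM in the other 5 libraries.

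Ion channels and their partners share the disc with Gja1 and Pkp2. Of 9 tested genes of that list, 3 lay above and 6 below vehicle (median -0.03, and -0.01 without Paro/Neo replicate 1). Fgf13, which modulates voltage-gated channels, averaged 33.1 TPM ± 2.25 in Paro/Neo and 26.2 TPM ± 1.65 in vehicle hearts (log2 change 0.33, adjusted p 0.496), and Dlg1, the scaffold SAP97, 52.8 TPM ± 5.37 in Paro/Neo and 42.8 TPM ± 1.61 in vehicle hearts (0.29, adjusted p 0.560). Both lay higher in every Paro/Neo heart. Scn3b, a channel beta subunit, was near the filter at 0.744 TPM ± 0.293 in Paro/Neo and 1.35 TPM ± 0.364 in vehicle hearts. It lay lower in every Paro/Neo heart than in any vehicle heart (log2 change -0.43, adjusted p 0.660 by limma). The nearest hearts were almost level, at 1.02 TPM in Paro/Neo replicate 1 and 1.06 TPM in vehicle replicate 3.

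Of 14 genes for traffic and turnover of connexin 43, 8 lay above and 6 below vehicle (median 0.02, and -0.02 without Paro/Neo replicate 1). The smallest unadjusted p belonged to Bin1, a membrane-shaping protein that helps deliver connexin and calcium channels, at 6.50 TPM ± 1.08 in Paro/Neo and 8.25 TPM ± 0.465 in vehicle hearts (adjusted p 0.651). Prkca, a kinase of connexin 43, followed at 7.03 TPM ± 1.04 in Paro/Neo and 8.59 TPM ± 0.352 in vehicle hearts, and Csnk1d at 20.8 TPM ± 2.06 in Paro/Neo and 18.2 TPM ± 2.31 in vehicle hearts. Prkca was lower in every Paro/Neo heart than in any vehicle heart, and Bin1 and Csnk1d overlapped. Without Paro/Neo replicate 1 the log2 change of Prkca was -0.16, against -0.26 over all hearts, and that of Csnk1d 0.12, against 0.18.

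**Figure D5:**
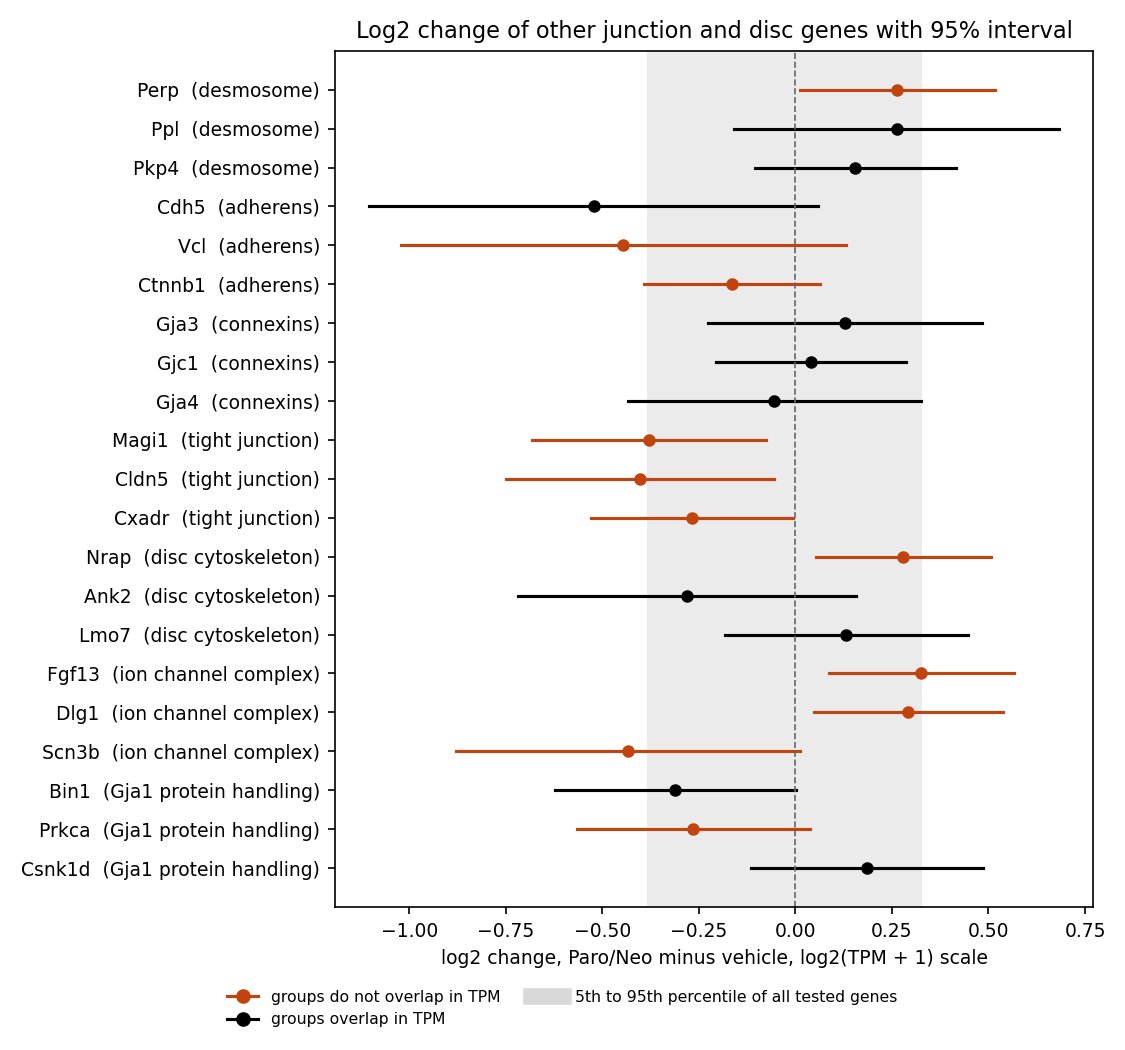
Log2 change, Paro/Neo minus vehicle, with the 95% interval, for the 3 genes with the smallest unadjusted p in each of the 7 lists; colour marks whether the groups overlap in TPM, and the grey band spans the 5th to 95th percentile of all tested genes. Estimates run from -0.52 for Cdh5 (-0.21 without Paro/Neo replicate 1) to 0.33 for Fgf13. Between these, Nrap at 0.28 lies on the higher side and Cldn5 at -0.40 and Magi1 at -0.38 on the lower side. None passed the threshold after adjustment.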

How the data were processed

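Ventricular mRNA of 6 mice was measured, 3 Paro/Neo and 3 vehicle, grouped and numbered by the sample titles. The deposited values are TPM, made by the authors; each column sums to 1000000. The submitters' processing notes name STAR 2.5.3a, FastQC 0.11.5, Subread, featureCounts and edgeR and the build mm10. Neither the annotation nor the strand setting is given in the sources used here. Per the labels' protocols, libraries were stranded and the integrity number of the RNA was above 7.

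The filter of 1 TPM in any 3 libraries kept 12409 genes. Their log2(TPM + 1) went into limma 3.58.1 (R 4.3.3); with this pseudocount, fold changes of low genes come out too small (eBayes with an intensity trend, two-sided, Benjamini-Hochberg adjustment). The fit was tested on simulated data. Reads were inferred as the smallest whole numbers, within 0.001 of a read, that fit the TPM ratios of a feature; they are lower estimates, used for depth and counting error and in no test. Symbols absent from the table were matched by RefSeq synonym; 4 adherens junction genes and 1 macrophage marker were. GC content was that of GENCODE M21 transcripts, present for 95.4% of tested genes.

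The members and lists were chosen with earlier results of these data known. Beside all members, named genes are listed genes past the threshold and the 3 with the smallest unadjusted p in each list. Ctnna1, Cdh13, Des, Gja5, Xirp2, Myl2 and Rgs5 were named after their values were seen. Alternatives were another pseudocount, 2 filters, 2 scalings (library medians and a trimmed mean of M values), array weights, no trend, a replicate block and each library left out.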

Additional observations from a re-analysis of the deposited data

How the results depend on the processing

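The count of junction genes past the threshold was 0 under all 14 alternatives (limma), with 0 to 2 of the 9 at an unadjusted p under 0.05, and Gja1 stayed lower and Dsp higher in each. Their adjusted p ranged from 0.477 to 0.890 for Gja1 and from 0.412 to 0.871 for Dsp. Over the fits with 1 library left out, the median log2 change of the 9 genes lay between -0.10 and 0.02. These fits turned the sign of 8 small changes, which spanned -0.056 to 0.11 for Cdh2, -0.015 to 0.25 for Dsg2, -0.16 to 0.12 for Dsc2, -0.037 to 0.14 for Pkp2, -0.14 to 0.015 for Ctnna3, -0.029 to 0.23 for Gja3, -0.012 to 0.11 for Gjc1 and -0.21 to 0.085 for Gja4. Over all genes, 15 higher and 2 lower became 4 to 23 higher and 0 to 4 lower with 1 library left out, 5 and 1 with no filter, 8 and 1 with no trend, 1 lower under the stricter filter and 4 lower with array weights; the cause was not tested. The replicate block gave 25 higher and 2 lower genes and 0 junction genes (adjusted p 0.635 for Gja1). Deviations of same-numbered hearts correlated at -0.05, -0.04 and -0.12. The replicate numbers, which are those of the titles, thus gave no sign of pairing, but so few values cannot exclude it. The sample descriptions number the Paro/Neo hearts 2 to 4, and that numbering was not used. The lowest member, Ctnna3, rested on at least 355 reads a library.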

Other observations

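Genes outside all lists were ranked by how closely their log2(TPM + 1) followed the junction genes over the 6 libraries. This is a description, with no p, since all points come from the same 6 libraries. With this many genes ranked over 6 points, some r near 1 arise by chance, so a high rank shows no link. The mean of the 9 standardised junction genes was followed most closely by Emp2 (Pearson r 0.998), Trappc12 (0.993), D630045M09Rik (0.993), Cacna1a (0.993) and Cnnm3 (0.993). Gja1 alone was followed most closely by Bbs9 (0.996), Rpp21 (0.991) and Myof (0.990).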
